A study of Mus musculus with 12 samples.

Results

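The genes described here carry cargo between the endoplasmic reticulum (ER) and the Golgi: subunits of the COPII and COPI vesicle coats with their small GTPases, cargo receptors, and the SNAREs and tethers with which the vesicles fuse. They are 39 genes chosen by name, with earlier results of these data known. They have 74 of the 46643 probes on the Illumina MouseWG-6 v1.1 array, and 35 of the genes had a probe that could be tested. Copb1, Kdelr1, Mcfd2 and Bet1 could not be tested, since none of the 12 arrays detected a probe of theirs. RNA came from C57BL/6 embryos at day 16.5 of gestation (E16.5). S1Pcko embryos (S1P f/f;Col2-Cre) lack site-1 protease, encoded by Mbtps1, in cells in which the Col2 promoter drives Cre, and the littermates called WT were S1P f/f without Cre, S1P f/+, or Cre carriers with a single floxed allele (S1P f/+;Col2-Cre), so a WT embryo may carry the floxed allele and Cre too. Chondroepiphyseal cartilage, broken off the tips of the long bones, had 2 arrays per genotype. Entire long bones, which hold bone and epiphyseal cartilage, had 3. Calvaria (skull vault) had 1. The paper describes S1Pcko long bones as lacking endochondral bone, with a cartilaginous shaft and enhanced cortical bone. Long bone arrays of the 2 genotypes thus hold unlike tissue.

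Replicate 2 of each cartilage and long bone group is a second amplification of RNA. In cartilage it repeats the extract of replicate 1, which came from 1 embryo per genotype, so the cartilage arrays hold no spread between embryos. The p-values take 1 spread shared by the cartilage and long bone arrays. Those for cartilage therefore do not measure the spread between embryos in that tissue. In WT long bone, replicates 1 and 2 share an extract, and in S1Pcko long bone the labels do not say which extract was amplified again. The long bone p-values count these second amplifications as samples too, so they may understate the spread between embryos. Values are normalized log2 intensities, each gene with several tested probes is counted by the brightest, and p-values are those of limma, adjusted by Benjamini-Hochberg over all 23744 tested probes. In tissue RNA, fewer cells of a type and less RNA per cell cannot be told apart.

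Cargo leaves the ER in vesicles with a COPII coat. The GTPase Sar1 is loaded with GTP by Preb (Sec12), recruits the inner coat of Sec23 and Sec24, and Sec13 with Sec31 forms the outer shell, while Sec16 organises the exit sites. The COPI coat, brought to the Golgi by Arf1, returns escaped ER proteins and the receptors themselves, and KDEL receptors hand ER chaperones to it. Chondrocytes load this route heavily, since they secrete procollagen and proteoglycans in bulk. Mutations of human SEC23A, SEC24D and TRAPPC2 cause skeletal disorders, and in mouse chondrocytes the transcription factor BBF2H7 (Creb3l2), which site-1 protease cuts from the ER membrane, is known to drive Sec23a.

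The clearest change in the group was that of Kdelr3, a KDEL receptor of the Golgi, which was lower in S1Pcko cartilage and S1Pcko long bone. In cartilage, 5 members had at least 1 probe below the threshold of adjusted p under 0.05, all lower in S1Pcko: Kdelr3, the p24 cargo receptor Tmed9, the COPI subunit Copz2, the inner COPII coat subunit Sec23a and the tether subunit Trappc2. No member was higher at that threshold. Copz2 and Sec23a passed only by probes that are not their brightest. By brightest probe 3 of the 35 tested members passed, where 2.92% of all genes were lower in that way. Of the 57 tested probes of the members, 7 passed in cartilage, where 4.86% of all tested probes passed in either direction, and all 7 were lower in S1Pcko. In long bone 1 of the 57 passed, also lower, which is near the 2.02% of all tested probes.

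The promoters of Kdelr3, Sec23a, Copz2 and Tmed9 are shown here (Trappc2 is left out because its probes disagree). Site-1 protease cuts ATF6 and the CREB3 family out of the ER membrane, factors that bind CRE-like and UPRE letters. Whether the loss of this cleavage has a part in the changes was not tested. The paper reports the ER stress response and genes driven by ATF6 as unaffected in S1Pcko cartilage. These promoters come from RefSeq (GRCm38.p6). They hold 250 bases before the transcript start and the first 20 after it, in the direction of the gene. Capitals mark UPRE letters (TGACGTGG on either strand). The promoters lie at chr15:79516158-79516427 (plus strand), chr12:59011998-59012267 (minus strand), chr11:96849626-96849895 (plus) and chr13:55592885-55593154 (plus). Downstream of them the genes run over chr15:79516408-79527739, chr12:58958384-59012017, chr11:96849876-96861203 and chr13:55593135-55597697.
Kdelr3: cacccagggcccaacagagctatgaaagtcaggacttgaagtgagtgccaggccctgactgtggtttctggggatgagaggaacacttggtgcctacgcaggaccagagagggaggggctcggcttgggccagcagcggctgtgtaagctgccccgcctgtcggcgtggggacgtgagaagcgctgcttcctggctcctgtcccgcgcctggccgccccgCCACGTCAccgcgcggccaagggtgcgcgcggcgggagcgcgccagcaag
Sec23a: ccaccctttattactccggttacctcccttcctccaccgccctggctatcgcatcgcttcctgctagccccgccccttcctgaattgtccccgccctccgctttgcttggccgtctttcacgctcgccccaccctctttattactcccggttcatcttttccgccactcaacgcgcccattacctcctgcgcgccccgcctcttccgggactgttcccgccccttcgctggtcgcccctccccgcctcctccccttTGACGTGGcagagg
Copz2: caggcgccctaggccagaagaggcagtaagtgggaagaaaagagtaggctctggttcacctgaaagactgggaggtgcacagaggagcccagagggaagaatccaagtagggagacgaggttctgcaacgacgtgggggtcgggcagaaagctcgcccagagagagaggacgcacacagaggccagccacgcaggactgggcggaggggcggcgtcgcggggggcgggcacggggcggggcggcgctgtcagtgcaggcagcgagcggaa
Tmed9: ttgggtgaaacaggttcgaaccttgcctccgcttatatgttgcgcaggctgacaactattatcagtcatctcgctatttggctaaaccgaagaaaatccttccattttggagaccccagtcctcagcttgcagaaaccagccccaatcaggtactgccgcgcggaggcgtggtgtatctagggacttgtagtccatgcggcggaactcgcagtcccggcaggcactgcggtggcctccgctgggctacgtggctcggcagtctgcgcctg
Kdelr3 held the letters in the opposite direction to the gene, from 30 bases before the start. In Sec23a they ran in the direction of the gene from base 7 of the transcript. Copz2 and Tmed9 held none of the letters searched.

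Over the 34 members with a promoter in the RefSeq table, 7 (20.6%) held the UPRE letters in the window of 250 bases before to 50 after the start, against 0.714% of all 27025 genes in the table and 1.07% of the 10112 of these that were tested on the arrays. The 5 others were Sec24d, an inner COPII coat subunit, the COPI subunits Copb1 and Copb2, the GTPase Arf1 and the Golgi SNARE Stx5a, shown with 10 bases on each side (chr3:123267460-123267487, chr7:114254691-114254718, chr9:98563714-98563741, chr11:59228229-59228256 and chr19:8741423-8741450, with the genes on the plus, minus, plus, minus and plus strand).
Sec24d: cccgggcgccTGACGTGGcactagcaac
Copb1: ccgcccccttCCACGTCAgccaaggact
Copb2: cccggaagttCCACGTCAgtgggttggc
Arf1: cggcaggcgcTGACGTGGctgccgtcag
Stx5a: ggcgcagcagCCACGTCAccgagttagg
Stx5a held a further copy from base 40 of its transcript. For the 6 tested members that held the letters, the log2 change in cartilage was -0.89 in Kdelr3, -0.80 in Sec24d and -0.55 in Sec23a. It was -0.31 in Copb2, -0.09 in Stx5a and 0.00 in Arf1. The median of the 6 was -0.43, and that of all 35 tested members was -0.15. Whether the letters go with a change was not tested. The 102 other tested genes with these letters had a median change of -0.03, and 5 of them were lower and 4 higher at an adjusted p under 0.05. The full CRE (TGACGTCA) stood in 1 member promoter, that of Cope, against 2.03% of all genes. The sterol element letters TCACNCCAC stood in that of Sec24d (1.44% of all genes), and neither the ERSE nor the ERSE-II motif, searched by their usual consensus, stood in any. All motifs were searched on both strands. A match of letters is not evidence of binding.

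Mbtps1 itself was measured first. Its brighter probe read 8.89 and 9.04 in WT cartilage against 8.62 and 8.87 in S1Pcko cartilage, a log2 change of -0.22 (SE 0.23, adjusted p = 0.653). In long bone it read 8.33, 8.67 and 9.11 in WT and 8.49, 8.41 and 8.66 in S1Pcko (log2 change -0.18, SE 0.19, adjusted p = 0.727). The calvaria arrays read 8.73 in WT and 8.62 in S1Pcko. Which exon is deleted is not given in the sources used here, so whether these probes lie in the deleted part is unknown and the values check no label. Between 44.1% and 47.1% of probes were detected on an array (20555 to 21978 probes), and no array stood apart in this.

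Read by brightest probe, 3 of the 35 members passed an adjusted p under 0.05 in cartilage, all lower (against 2.92% of all 12542 genes tested), and none was higher (2.38% of all genes). Tmed9 alone was also past 2-fold, where 1.53% of all genes were lower. Both S1Pcko arrays lay below both WT arrays for 15 members and above them for 5, where 26.2% of all genes were lower and 27.9% higher in that way. The log2 change was below 0 for 25 of the 35 members (48.5% of all genes), with a median of -0.15 against 0.01 over all genes. By role the medians were -0.12 for the 13 COPII genes, -0.11 for the 8 COPI and Arf genes, -0.39 for the 8 cargo receptors and -0.22 for the 6 SNAREs and tethers.

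**Figure D1:**
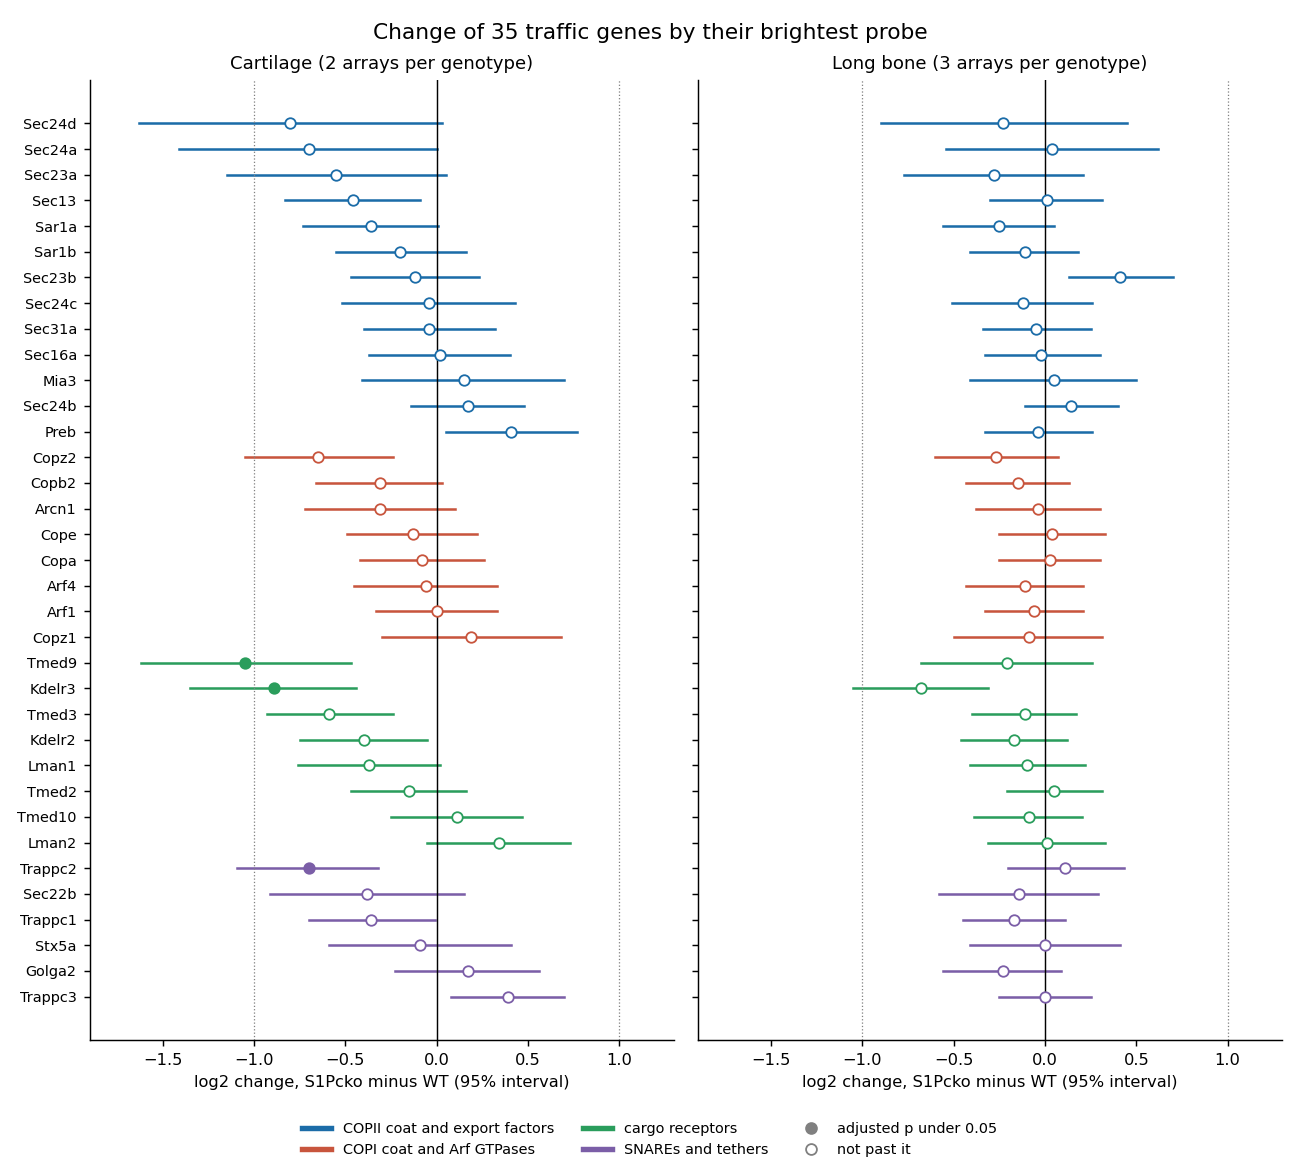
Log2 change of the 35 tested members (S1Pcko minus WT, brightest probe, with the 95% interval of the fit) in cartilage on the left and long bone on the right, ordered within each role by the change in cartilage. Filled points passed an adjusted p under 0.05 and dotted lines mark 2-fold. Tmed9, Kdelr3 and Trappc2 are filled in cartilage, none is filled in long bone, and the intervals of most other members cross 0.

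Among the cargo receptors, Kdelr3 was measured by 2 bright probes. Probe 4760605 read 12.25 and 12.13 in WT cartilage and 11.20 and 10.97 in S1Pcko cartilage. In long bone it read 12.18, 12.26 and 12.17 in WT and 11.57, 11.19 and 11.48 in S1Pcko, and in calvaria 12.22 and 11.78. Every S1Pcko array lay below every WT array, and WT cartilage and WT long bone did not differ beyond their spread (log2 difference -0.02, adjusted p = 0.967). Kdelr3 was 2.15-fold lower in S1Pcko cartilage by this probe (log2 change -1.10, SE 0.17, adjusted p = 0.00462, 2 arrays per genotype). It was 1.73-fold lower in long bone (log2 change -0.79, SE 0.14, adjusted p = 0.0137, 3 arrays per genotype). The cartilage call was lost without WT replicate 1 (adjusted p = 0.0543) or S1Pcko replicate 2 (0.0577), and the long bone call without WT replicate 1 (0.0528) or 2 (0.0534) or S1Pcko replicate 2 (0.076) or 3 (0.0563).

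The second Kdelr3 probe, 1580672, is the slightly brighter one and stands for the gene in the counts. It read 12.39 and 12.10 in WT cartilage and 11.59 and 11.12 in S1Pcko cartilage, with a log2 change of -0.89 (SE 0.21, adjusted p = 0.0331). Its long bone values were 12.37, 12.22 and 12.41 in WT and 11.90, 11.52 and 11.54 in S1Pcko, with a log2 change of -0.68 that did not pass (SE 0.17, adjusted p = 0.0732). Both probes were thus lower in S1Pcko in both tissues, and in long bone the threshold lay between them. Its cartilage call was lost without any 1 cartilage array other than S1Pcko replicate 1, and without WT long bone replicate 1 or S1Pcko long bone replicate 3 (adjusted p = 0.0503 to 0.242), and without S1Pcko long bone replicate 1 the long bone change passed (adjusted p = 0.0245). The change of Kdelr3 was not shown to differ between the tissues (difference -0.22, 95% interval -0.80 to 0.37, adjusted p = 0.745).

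Kdelr2, a paralog with the same role, read 11.62 and 11.71 in WT cartilage and 11.18 and 11.35 in S1Pcko cartilage. The arrays did not overlap, but its log2 change of -0.40 did not pass (SE 0.16, adjusted p = 0.183), and in long bone the change was -0.17 (adjusted p = 0.603). Kdelr1 could not be tested. The KDEL receptors measured here therefore had unequal changes, and the difference between the genes was not tested.

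The p24 proteins are transmembrane cargo receptors that cycle with both coats. Tmed9 read 8.37 and 8.09 in WT cartilage and 7.34 and 7.02 in S1Pcko cartilage, and was 2.07-fold lower (log2 change -1.05, SE 0.26, adjusted p = 0.0451). In long bone its values overlapped, at 8.26, 7.75 and 7.73 in WT and 7.27, 7.89 and 7.94 in S1Pcko (log2 change -0.21, SE 0.21, adjusted p = 0.717). The calvaria arrays read 7.21 and 7.11. Tmed9 was thus lower in S1Pcko in cartilage, yet the difference between the changes in the 2 tissues did not pass (-0.84, 95% interval -1.58 to -0.09, adjusted p = 0.285). Its call in cartilage ended without any 1 of the 4 cartilage arrays (adjusted p = 0.0991 to 0.256), without WT long bone replicate 2 (0.0527) or S1Pcko long bone replicate 2 (0.0595) or 3 (0.0563), and with the replicate block (0.0639).

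Tmed3, another p24 protein, was next in size among the receptors and had no overlap of its arrays in cartilage. It read 10.25 and 10.46 in WT and 9.72 and 9.81 in S1Pcko, with a log2 change of -0.59 that fell short of the threshold (SE 0.16, adjusted p = 0.0594). In long bone its change was -0.11 (adjusted p = 0.755). Tmed2 had a log2 change of -0.15 in cartilage (adjusted p = 0.613), and the probes of Tmed10 disagreed, at 0.11 for the brightest and -0.54 for the other (adjusted p = 0.774 and 0.246). The lectin receptor Lman1, which carries glycoproteins such as clotting factors, was at -0.37 (adjusted p = 0.266), and the related Lman2 at 0.34 (adjusted p = 0.32).

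Cargo receptors as a group had the lowest median in cartilage. For 6 of the 8 tested receptors the S1Pcko arrays lay below the WT arrays in cartilage and for 2, Lman2 and Tmed10, above them (26.2% and 27.9% of all genes). Their summed intensity, which bright probes dominate, was 22400 to 23400 in WT cartilage and 18100 to 18900 in S1Pcko cartilage. It was 23100 to 23800 in WT long bone against 19900 to 21400 in S1Pcko long bone, and 23700 against 21100 in calvaria. In these sums all S1Pcko arrays were below all WT arrays of the same tissue. In cartilage and in long bone the gap was wider than the spread within a group. Kdelr3 is bright and weighs heavily in the sums, at means of 12.25 in WT and 11.35 in S1Pcko cartilage, and 12.33 and 11.66 in long bone. Taken singly, the 8 receptors had a median log2 change of -0.11 in long bone, with 6 below 0 and 2 above.

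**Figure D2:**
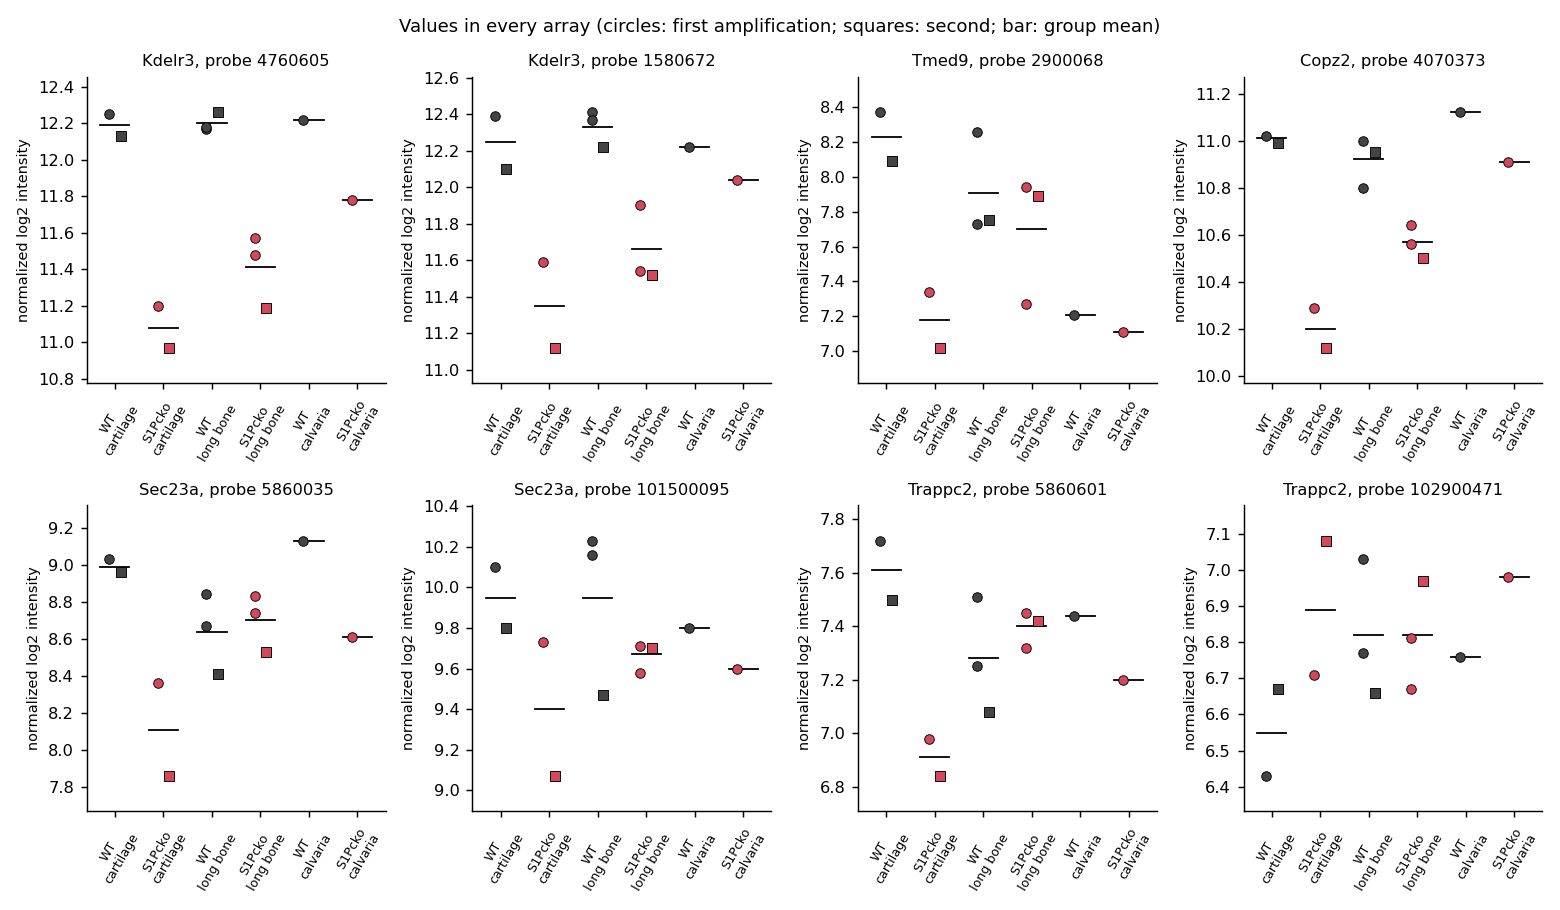
Normalized log2 intensity in each of the 12 arrays for 8 probes of 5 members, with WT in grey and S1Pcko in red, circles for first and squares for second amplifications, and bars at the group means (vertical axes do not start at 0 and differ between panels). Kdelr3 is lower in every S1Pcko array than in the WT arrays of the same tissue, Tmed9, Sec23a probe 5860035 and Trappc2 probe 5860601 separate in cartilage and overlap in long bone, and Trappc2 probe 102900471 runs the other way in cartilage.

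In the COPI coat, Copz2 encodes a variant of the small zeta subunit of coatomer. Its 3 probes gave like changes in cartilage, of -0.80 (SE 0.15, adjusted p = 0.0124) for probe 4070373, -0.78 (SE 0.16, adjusted p = 0.0212) for probe 1780010 and -0.65 (SE 0.19, adjusted p = 0.0748) for the brightest, 2360020. Probe 4070373 read 11.02 and 10.99 in WT cartilage and 10.29 and 10.12 in S1Pcko cartilage. In long bone it read 10.80, 10.95 and 11.00 in WT and 10.64, 10.50 and 10.56 in S1Pcko, and in calvaria 11.12 and 10.91. Copz2 fell by 0.80 in cartilage, and the long bone arrays did not overlap either, although the change there of -0.35 did not pass (SE 0.12, adjusted p = 0.201). The cartilage call of probe 4070373 was lost without WT replicate 1 (adjusted p = 0.096), WT replicate 2 (0.0807) or S1Pcko replicate 2 (0.118), and that of probe 1780010 without any 1 cartilage array (0.0997 to 0.122).

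The other COPI subunits and the Arf GTPases did not pass. The paralog Copz1 had a log2 change of 0.19 in cartilage (adjusted p = 0.692). Copb2 and Arcn1, the beta-prime and delta subunits, were each at -0.31 without overlap of the arrays (adjusted p = 0.294 and 0.394), Cope at -0.13 and Copa at -0.08. Arf1, which recruits the coat, was at 0.00 (95% interval -0.33 to 0.33) and Arf4 at -0.06. None of the 8 tested genes passed by brightest probe in cartilage or long bone.

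Among the COPII genes, Sec23a encodes the subunit that stimulates the GTPase of Sar1. Probe 5860035 read 9.03 and 8.96 in WT cartilage and 8.36 and 7.86 in S1Pcko cartilage, a 1.85-fold fall (log2 change -0.89, SE 0.21, adjusted p = 0.0342). Its long bone values overlapped, at 8.67, 8.41 and 8.84 in WT and 8.83, 8.53 and 8.74 in S1Pcko (log2 change 0.06, adjusted p = 0.917), and the calvaria arrays read 9.13 and 8.61. The brighter probe, 101500095, read 10.10 and 9.80 in WT cartilage and 9.73 and 9.07 in S1Pcko cartilage, with a change in the same direction that did not pass (log2 change -0.55, SE 0.27, adjusted p = 0.293). Sec23a was therefore called by 1 of its 2 probes. The authors, who required a 2-fold change, did not find it down-regulated on the arrays. They report it as unaffected by qPCR on pooled embryos and in protein level. The call of probe 5860035 ended without WT cartilage replicate 1 (adjusted p = 0.183) or 2 (0.138), S1Pcko cartilage replicate 2 (0.249), WT long bone replicate 1 (0.0535) or S1Pcko long bone replicate 3 (0.0549).

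The paralog Sec23b, which can take the same place in the coat, did not pass in either tissue. It read 7.78 and 7.62 in WT cartilage and 7.70 and 7.47 in S1Pcko cartilage (log2 change -0.12, SE 0.16, adjusted p = 0.733). In long bone it read 7.24, 7.35 and 7.08 in WT and 7.59, 7.63 and 7.69 in S1Pcko, without overlap, at a log2 change of 0.41 that did not pass (SE 0.13, adjusted p = 0.156). It was the largest positive change of a member in long bone.

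The 4 Sec24 genes encode the coat subunits that bind cargo, and their values diverged. Sec24d had the largest negative change of the COPII genes (-0.80, SE 0.38, adjusted p = 0.261), but both genotypes read lower in the second amplification, at 9.13 and 8.19 in WT cartilage and 8.34 and 7.38 in S1Pcko cartilage. Within each amplification the difference was about the same, -0.79 in the first and -0.81 in the second, while the groups overlapped. Sec24a was dim (detected on 9 of the 10 arrays) with a log2 change of -0.70 (adjusted p = 0.248). Sec24c was at -0.04, and Sec24b at 0.17 in cartilage and 0.14 in long bone (adjusted p = 0.556 and 0.631), with S1Pcko arrays above WT arrays in both tissues.

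Of the remaining COPII genes, Sec13 of the outer shell read 12.88 and 13.17 in WT cartilage and 12.49 and 12.63 in S1Pcko cartilage (log2 change -0.46, SE 0.17, adjusted p = 0.148). Its partner Sec31a was at -0.04 and the Sar1 GTPases at -0.36 (Sar1a, adjusted p = 0.263) and -0.20 (Sar1b, adjusted p = 0.553). Preb, the exchange factor of Sar1, was the highest of the COPII genes at 0.41 (SE 0.16, adjusted p = 0.193), from 10.57 and 10.47 in WT to 11.00 and 10.85 in S1Pcko. Its 2 other probes were at 0.17 and 0.03, and Sec16a was at 0.02. Mia3 (TANGO1), which helps load procollagen at exit sites, was near the detection limit, with its brightest probe detected on 4 of the 10 arrays, 1 in each group, so no fold is given.

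Among SNAREs and tethers, Trappc2 encodes sedlin, a subunit of the TRAPP tether. Probe 5860601 read 7.72 and 7.50 in WT cartilage and 6.98 and 6.84 in S1Pcko cartilage, a 1.63-fold fall (log2 change -0.70, SE 0.18, adjusted p = 0.0453). In long bone its change was 0.11 (adjusted p = 0.783) and the difference between tissues did not pass (-0.82, 95% interval -1.31 to -0.32, adjusted p = 0.153). A second probe of the gene, 102900471, ran the other way, at 6.43 and 6.67 in WT and 6.71 and 7.08 in S1Pcko cartilage (log2 change 0.34, SE 0.19, adjusted p = 0.363). The direction of Trappc2 thus depends on the probe. The call of the first ended without any 1 cartilage array (adjusted p = 0.115 to 0.254), without WT long bone replicate 1 (0.0664), S1Pcko long bone replicate 2 (0.07) or 3 (0.0675), and with the replicate block (0.0549).

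Trappc3, a neighbouring TRAPP subunit, had the largest positive change of this role, from 10.79 and 10.75 in WT cartilage to 11.23 and 11.09 in S1Pcko cartilage (log2 change 0.39, SE 0.14, adjusted p = 0.151). Its 4 tested probes disagreed, with changes from -0.43 to 0.39. Trappc1 was at -0.36 (adjusted p = 0.226), the SNARE Sec22b at -0.38 (adjusted p = 0.414) and Stx5a at -0.09. For Golga2 (GM130), a golgin that tethers vesicles, the change in cartilage was 0.17 (adjusted p = 0.665).

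Each amplification gave its own difference between the genotypes. Within the first amplification the median log2 difference between S1Pcko and WT cartilage was -0.14 over the 35 members, and within the second it was -0.28. The difference was below 0 in both for 20 members (57.1%, against 37.0% of all genes) and above 0 in both for 8 (22.9%, against 39.1%). Since both amplifications start from the same extracts, this shows the repeat of a measurement and not of an embryo.

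When the amplifications of an extract were averaged, so that cartilage had 1 sample per genotype and its spread was taken from long bone, no member passed in cartilage or in long bone. Kdelr3 probe 4760605 then had a log2 change of -1.10 in cartilage and -0.67 in long bone. The long bone value leaves out S1Pcko replicate 2, whose source extract the labels do not name, so nothing was averaged in that group. The calls therefore rest on counting both amplifications as samples. With the authors' processed values or the methods' 2-way ANOVA, Kdelr3 probe 4760605 and the 2 Copz2 probes were still called in cartilage, Tmed9, Sec23a and Trappc2 were not, and no member was called in long bone.

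**Figure D3:**
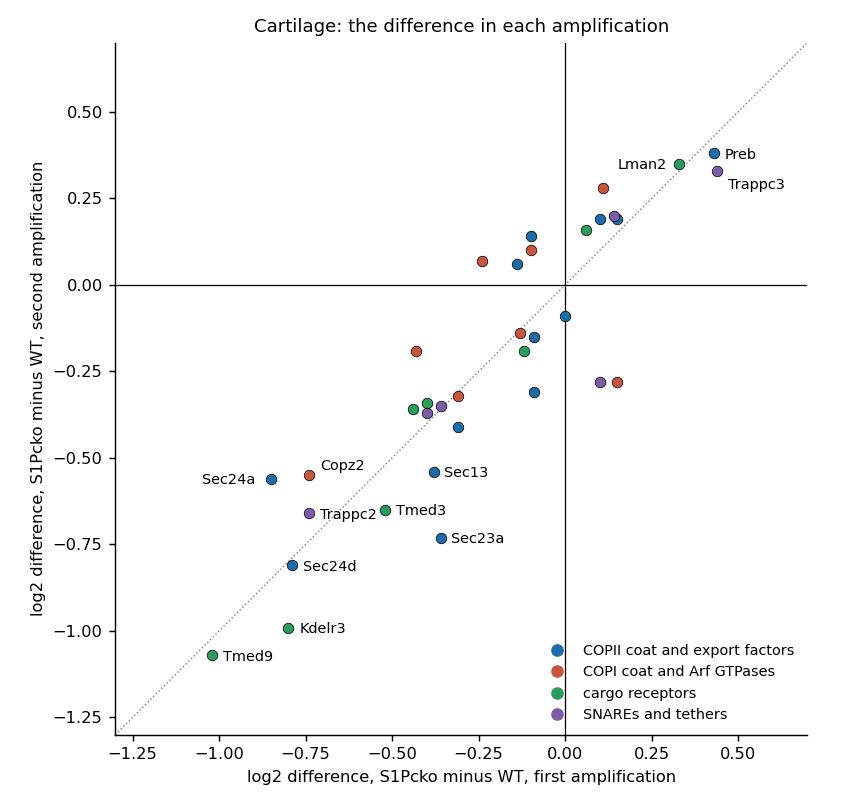
Log2 difference between S1Pcko and WT cartilage in the second amplification (vertical) against the first (horizontal), with 1 point for each of the 35 members, coloured by role, and a dotted line where both are equal. Tmed9, Kdelr3, Sec24d, Trappc2 and Copz2 lie near the line at the lower left, Preb, Trappc3 and Lman2 at the upper right.

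In long bone no member passed an adjusted p under 0.05 by its brightest probe (limma, 0 of 35, where 2.41% of all genes passed in either direction). At an unadjusted p under 0.05 there were 2, Sec23b higher and Kdelr3 lower, a smaller share than the 15.4% of all genes. Both genotypes separated without overlap for 6 members: Kdelr3, Kdelr2, Sar1a and Golga2 were lower and Sec23b and Sec24b higher in S1Pcko, where 19.2% of all genes separated in either direction. The change was below 0 for 25 of 35 members (52.1% of all genes), with a median of -0.09 against -0.01 over all genes. Kdelr3 had the largest of these changes in size.

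No member differed between the tissues in its response by an adjusted p under 0.05 (limma, 0 of 35, where 0.431% of all genes passed). At an unadjusted p under 0.05 there were 4, all with the more negative change in cartilage: Trappc2, Tmed9, Sec23b and Tmed3. That is a smaller share than the 14.8% of all genes at that level. Sec23a probe 5860035 had an estimate of -0.95 (95% interval -1.53 to -0.36, adjusted p = 0.159). Changes that were called in cartilage alone are therefore not shown to be larger there.

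Between the tissues of WT embryos the members were compared in the same way. By brightest probe 0 of 35 passed an adjusted p under 0.05 between the tissues (limma, 2 higher and 2 lower in cartilage at an unadjusted p under 0.05), where 11.3% of all genes passed and 27.6% at the unadjusted level. The changes ran from -0.45 for Preb to 0.48 for Sec23b, with a median of 0.09. A second probe of Golga2, 6520746, was an exception, at 10.27 and 10.56 in WT cartilage against 9.69, 9.48 and 9.37 in WT long bone (log2 difference 0.90, SE 0.20, adjusted p = 0.0173). The brightest Golga2 probe differed by -0.35 (adjusted p = 0.206), so the direction for the gene depends on the probe, and the call ended without either WT cartilage array (adjusted p = 0.0566 without replicate 1, 0.158 without replicate 2).

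Calvaria had 1 array per genotype and no test. Of the 35 genes, 29 read lower in S1Pcko (52.0% of all genes), with a median difference of -0.12 against -0.01 over all genes. The range was from -0.44 for Arf4 to 0.27 for Copz1, and Arf4 was near the detection limit (5.88 in WT and 5.45 in S1Pcko). None reached 2-fold, as 1.39% of all genes did in either direction. By brightest probe all 8 cargo receptors read lower, with log2 differences from -0.35 for Tmed3 to -0.01 for Tmed10. The other tested probes of Tmed10 (0.52), Tmed2 (0.29) and Lman2 (0.08) read higher in S1Pcko, and that of Kdelr3 lower (-0.44). The direction for Tmed10, Tmed2 and Lman2 thus depends on the probe.

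**Figure D4:**
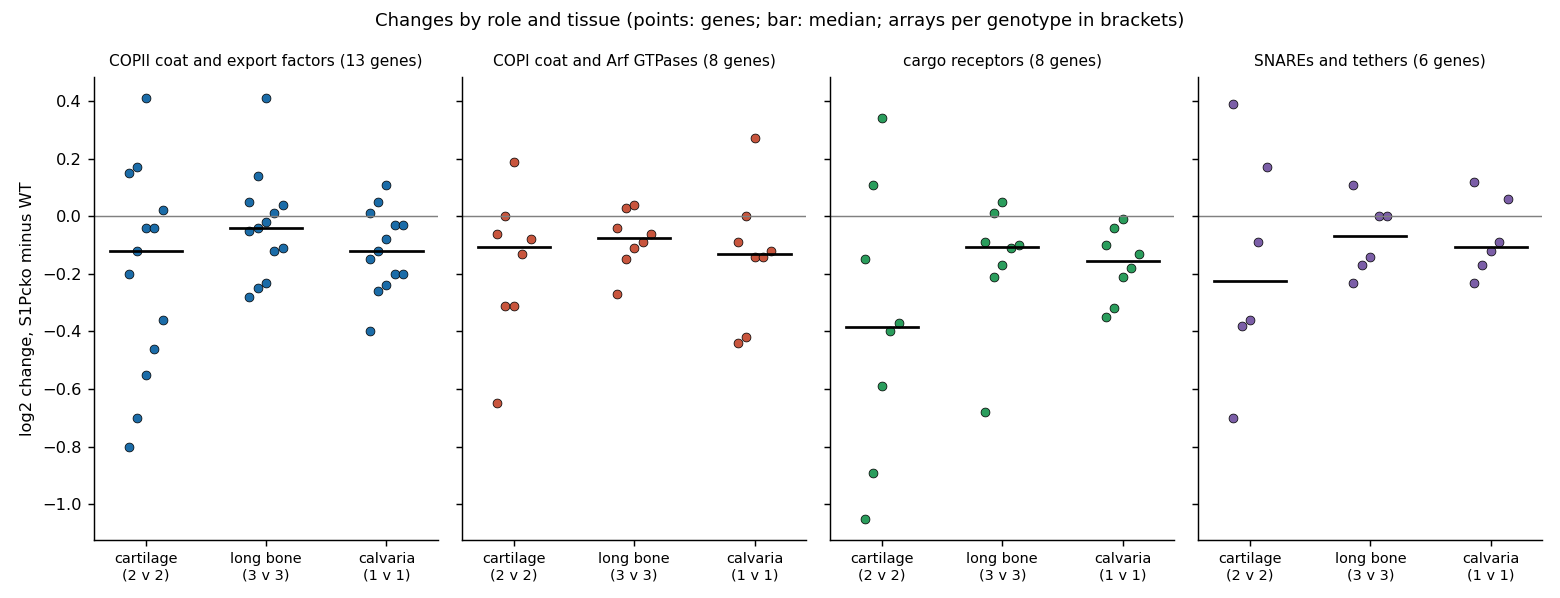
Log2 change (S1Pcko minus WT) of each tested member by role in cartilage, long bone and calvaria, with a bar at the median of the role; the arrays per genotype stand in brackets. In each role the range is widest in cartilage, and cargo receptors in cartilage have the lowest median, -0.39.

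The wider route was read from 61 other traffic genes, of which 54 were tested. By brightest probe 1 was lower and 0 were higher in cartilage at an adjusted p under 0.05 (2.92% and 2.38% of all genes), with a median of -0.13. Other probes passed for Lman2l, a relative of Lman2, which was higher (probe 101990717, 0.72, adjusted p = 0.0306), and for the Golgi stacking protein Gorasp1, which was lower (probe 102190673, -0.81, adjusted p = 0.0497). The gene called by its brightest probe was Sec16b, a paralog of the exit site scaffold Sec16a, which read 9.47 and 9.61 in WT cartilage and 8.15 and 8.27 in S1Pcko cartilage. It was 2.51-fold lower there (log2 change -1.33, SE 0.18, adjusted p = 0.0024), a call that held without each of the 10 arrays in turn (adjusted p = 0.00176 to 0.0356) but not with the amplifications averaged (0.284). In long bone it read 9.24, 9.19 and 9.37 in WT and 8.70, 8.20 and 8.59 in S1Pcko, a 1.71-fold fall (log2 change -0.77, SE 0.15, adjusted p = 0.0237). That call was lost without WT replicate 1 (adjusted p = 0.0796) or 2 (0.0568) or S1Pcko replicate 2 (0.101) or 3 (0.079), with the authors' processed values (0.0783), with the methods' 2-way ANOVA (0.0983) and with the 2 groups fitted alone (0.0804). Between the WT tissues, 3 of the 54 were higher in cartilage by brightest probe, namely the TRAPP subunit Trappc6a (0.81), the GTPase Rab6 (0.58) and the Golgi SNARE Gosr2 (0.57), and 0 were lower, where 11.3% of all genes passed. Another Rab6 probe, 106200110, passed in the opposite direction (-0.67, adjusted p = 0.0117), so the direction for that gene depends on the probe. Other probes of the TRAPP subunit Trappc12 (100460450, -1.74, adjusted p = 0.00122) and of Arfgap1, which stimulates the GTPase of Arf1 (102570092, -0.57, adjusted p = 0.0302), were lower in WT cartilage.

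Of 10 regulators, the transcription factors that drive secretory genes and the proteases that release them, 9 were tested and 0 passed in cartilage (limma, 2 higher at an unadjusted p under 0.05, as were 10.4% of all genes). Creb3l2 (BBF2H7) read 6.09 and 6.74 in WT and 5.75 and 6.17 in S1Pcko cartilage (log2 change -0.45, SE 0.40, adjusted p = 0.587). Xbp1, whose protein drives secretory genes after splicing of its RNA, was at 0.08 (adjusted p = 0.821), and the arrays do not measure that splicing. In long bone Creb3l3 (CREBH) was lower (log2 change -1.16, SE 0.22, adjusted p = 0.0201), at 6.34, 6.70 and 5.81 in WT and 5.43, 4.83 and 5.11 in S1Pcko, where replicate 2 did not detect it, so no fold is given. That call ended without WT replicate 1 (adjusted p = 0.0814) or 2 (0.0674), S1Pcko replicate 2 (0.0999) or 3 (0.091), with the replicate block (0.0529), with the authors' processed values (0.224), with the methods' 2-way ANOVA (0.15), with the 2 groups fitted alone (0.0783) and without a filter on dim probes (0.0668). In cartilage no array detected it.

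The cargo itself, 11 cartilage matrix genes of which 10 were tested, had 0 calls in cartilage and long bone (limma, 4 lower in cartilage at an unadjusted p under 0.05, as were 11.1% of all genes). Their median change was -0.56 in cartilage and 0.23 in long bone, and S1Pcko arrays lay below WT arrays in cartilage for 8 of the 10 (26.2% of all genes). Hapln1, a link protein, was at -1.49 (adjusted p = 0.0772) and Col2a1 at 0.32 (adjusted p = 0.284). The summed intensity of these genes was 107000 to 112000 in WT cartilage and 88400 to 90800 in S1Pcko cartilage, the same direction as that of the cargo receptors. In long bone it was 54500 to 97300 in WT and 63100 to 87000 in S1Pcko. There the summed intensity of the receptors was lower and that of the cargo overlapped.

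Markers of other cells also moved with genotype. In cartilage the summed osteoclast markers (5 of 6 tested) were 2200 to 2460 in WT and 3930 to 4360 in S1Pcko, the osteoblast markers (5 of 6) 14200 to 23900 and 22100 to 25900, and the hypertrophic markers (3 of 3) 2880 to 3270 and 1720 to 1770. The erythroid markers (3 of 5) were 23900 to 25000 in WT and 17400 to 18000 in S1Pcko, the macrophage and granulocyte markers (4 of 6) 399 to 520 and 59.1 to 62, and the epidermis markers (3 of 5) 975 to 1020 and 131 to 172. Skeletal muscle markers (8 of 8) overlapped at 45500 to 49900 and 47700 to 52900, and endothelium markers (4 of 4) were 1810 to 1830 and 1910 to 2080. Summed osteoclast markers were thus higher, and summed blood, macrophage, epidermis and hypertrophic markers lower, in the S1Pcko cartilage arrays. These arrays also had the lower Kdelr3, Tmed9 and Copz2. Single genes did not all follow the sums. By log2 change in cartilage, 1 of the 5 osteoclast markers was below 0 (-0.06) and 1 of the 3 hypertrophic markers above 0 (0.27). The osteoblast sums overlapped, yet 4 of the 5 tested osteoblast markers were above 0 and 1 below, with a median of 0.87. Of these, 1 passed an adjusted p under 0.05 (limma) and was higher, as were 2.38% of all genes. The 3 hypertrophic markers ran from -1.42 to 0.06 in long bone, with a median of -0.11. In long bone osteoclast markers were 21500 to 25100 in WT and 6880 to 14500 in S1Pcko, erythroid markers 27500 to 28800 and 10700 to 16000, macrophage and granulocyte markers 1810 to 9640 and 85.5 to 1840, hypertrophic markers 19000 to 25500 and 8270 to 12200, muscle markers 67000 to 70900 and 27900 to 78500, osteoblast markers 45000 to 53700 and 39000 to 52900, endothelium markers 2990 to 3460 and 2530 to 3610, and epidermis markers 154 to 220 and 223 to 1640. The cartilage markers (8 of 9 tested) summed to 119000 to 121000 in WT cartilage, 60100 to 107000 in WT long bone and 32000 in WT calvaria, highest in the tissue labelled cartilage. The part of these cells in the values of the traffic genes was not tested.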

How the data were processed

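RNA from E16.5 cartilage, long bone and calvaria of S1Pcko and WT embryos was amplified to biotinylated cRNA with the Ambion MessageAmp kit and hybridised to 12 Illumina arrays by the authors. The deposited tables hold, for each array, a probe intensity on a linear scale without normalization and a detection p-value computed before deposition. The scanner and summary software are not given in the sources used here. The deposited value table of the series, whose intensity values look background-subtracted and quantile normalized, served as an alternative.

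Background correction, quantile normalization of the 12 arrays and log2 transformation were done with neqc (limma 3.58.1, R 4.3.3, offset 16). Leaving calvaria aside, a probe was tested if at least 2 of the other 10 arrays detected it (p under 0.05), which left 23744 probes for 12542 genes. A linear model of the 4 groups was fitted with limma (6 residual and 5.13 prior degrees of freedom), and p-values were adjusted by Benjamini-Hochberg over all tested probes. A call is an adjusted p under 0.05. The script was tested on simulated data. Summed intensities leave out the offset. Of the array's probes, 32794 carry 1 gene symbol in the platform annotation, 55 several and 13794 none here, and the annotation may be old. The number of arrays limits the precision.

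The 39 members and all gene lists were chosen with earlier results of these data known. Values in every array are given for members with a probe past an adjusted p under 0.05 at 1.5-fold or more in a contrast, for the 3 largest rises and falls in each tissue, and for Sec23a and Sec23b. Others that are given so (Kdelr2, Tmed3, Sec13) and Sec16b, Creb3l2 and Creb3l3 were chosen after their values were seen. Replicate numbers in the labels mark the amplification, so same-numbered arrays share a round. The deviations of such pairs from their group means correlated at r = 0.47 in cartilage and 0.02 in long bone. The methods name a 2-way ANOVA, which was run as an alternative beside other backgrounds, normalizations, filters, probe rules, averaging of amplifications, a replicate block and leaving out each array. Promoters were taken from RefSeq (GRCm38.p6). Those of Arcn1, Kdelr2, Lman1, Tmed2 and Trappc1 were not used here.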

Additional observations from a re-analysis of the deposited data

How the results depend on the processing

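The 3 members called in cartilage by brightest probe became 6 (5 lower and 1 higher) with no background correction and 5 with median scaling. They became 1 with the 2 groups fitted alone, 1 with the replicate block (Kdelr3) and 1, Trappc3, which was higher, by the methods' 2-way ANOVA. Without a filter on dim probes there were again 3, but not the same genes: Kdelr3 (probe 1580672, adjusted p = 0.0522), Tmed9 (0.0934) and the call of Sec23a probe 5860035 (0.054) were lost, and Trappc2, Tmed3 and Trappc3 (higher, 0.0489) were called. There were 0 with the authors' processed values, with the first amplification alone and with the amplifications averaged, where the lone cartilage sample of a genotype is assumed to vary like those of long bone. Leaving out 1 array gave 0 to 4: 0 without WT cartilage replicate 1 or 2, S1Pcko cartilage replicate 2 or S1Pcko long bone replicate 3, 1 without S1Pcko cartilage replicate 1, WT long bone replicate 1 or S1Pcko long bone replicate 2, 2 without WT long bone replicate 2 and 4 without WT long bone replicate 3. In long bone the count of 0 became 1 with no background correction and with the mean of the probes of a gene, and was 0 to 1 without 1 array. The median change of the members in cartilage (-0.15) was -0.29 with median scaling, -0.21 with the mean of the probes and -0.23 to -0.15 without 1 array. In long bone (-0.09) it was -0.05 without a filter and in the first amplification alone, and -0.12 to -0.01 without 1 array. No called value changed sign under any alternative run. Of the values for single probes, other contrasts and all genes, 829 kept their side of the threshold or size, 98 lost a call, 7 gained one and 58 moved. The cause was not tested. The fit with the chip as a block was not run, since no chip is named for the arrays used here. Probes near the detection limit, as those of Mia3, Arf4 and Sec24a, limit what can be seen, and no spread between embryos could be measured in cartilage.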
